A study of Homo sapiens with 12 samples.

Results

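The expression of 10 chemokine genes was examined in mRNA-seq of U87 and U118, human glioblastoma lines, before and after long exposure to temozolomide (TMZ), an alkylating drug. The genes were chosen by name, with earlier results of these data known. They comprised the CXC chemokines CXCL1, CXCL2, CXCL3, CXCL5, CXCL6, CXCL8 and CXCL12 and the CC chemokines CCL2, CCL3 and CCL20. All 10 were found by their Ensembl identifiers among the 58174 genes of each deposited table.

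Chemokines are small secreted proteins that guide the movement of cells carrying matching G protein-coupled receptors. CXCL1, CXCL2, CXCL3, CXCL5, CXCL6 and CXCL8 (interleukin-8) bind CXCR2 and attract neutrophils, and CXCL6 and CXCL8 also bind CXCR1. CXCL12 binds CXCR4 and the scavenging receptor ACKR3, CCL2 attracts monocytes through CCR2, CCL3 binds CCR1, and CCL20 binds CCR6. Several of them belong to the secretory programme described for senescent cells and are known targets of NF-kappa B, a transcription factor activated by interleukin-1 and tumour necrosis factor.

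Both are established lines, and the labels give a single line for each comparison. Per the study's methods, CD133-CD15- cells were sorted from both lines and kept in medium with serum and BMP2, so all 4 groups share this selection. The control cells, labelled sensitive, were not given TMZ. The cells labelled resistant, called aggregation cells in the study, grew as aggregations after weeks of TMZ at 50 μM, and control and aggregation cells were compared to find genes that differed between them. There were 3 libraries in each group. No source states whether they came from separate cultures, so p-values measure the spread between these libraries, which may be technical.

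Values were deposited as TPM, the share of a gene's transcripts in a fixed total after adjustment for length. Read numbers cannot be had from it, so depth is unknown and a value of 0 is given only as listed at 0. Mitochondrially encoded genes took 12.9% to 16.9% of the total in U87 sensitive, 22.2% to 23.7% in U87 resistant, 7.42% to 19.7% in U118 sensitive and 13.2% to 29.9% in U118 resistant libraries, and replicate 1 was the lowest of the last group. The 3 libraries labelled U118 resistant went against their label. Of 110 genes at 10 TPM or more in all U118 sensitive libraries and below 0.1 TPM in all U87 sensitive libraries, 86 were below 1 TPM in all 3 libraries labelled U118 resistant, and of 44 genes with the opposite pattern 37 reached 1 TPM in all 3. In U87 resistant libraries the same counts were 105 and 44. Of the 110 genes, 14 reached 1 TPM in all 3 libraries labelled U118 resistant, and 4 of the 44 were below 1 TPM in all of these libraries. Spearman correlation over all genes between these libraries and U118 sensitive was 0.829 to 0.850, against 0.861 to 0.870 with U87 sensitive. The U118 comparison is therefore written as one between libraries with these labels, and the U87 comparison, which does not use them, stands beside each result. Of markers fixed for other cell types, PTPRC and AIF1 of leukocytes stayed below 0.1 TPM in all 12 libraries, and the glial markers GFAP, SOX2 and S100B stayed below 0.7 TPM. Of the other 2 glial markers, OLIG2 was 1.45 to 4.45 TPM in U87 and at most 1.05 TPM in U118, and NES was 5.76 to 24.1 TPM. The summed level of all 5 was 9.33 to 12.3 TPM in U87 sensitive, 14 to 16.1 in U87 resistant, 6.68 to 8.47 in U118 sensitive and 11.6 to 26 in U118 resistant, so it moved with the label in both lines. The summed level of all 7 leukocyte markers was 5.86 to 7.42 TPM in U87 sensitive, 6.08 to 6.38 in U87 resistant, 1.91 to 2.19 in U118 sensitive and 10.8 to 17.3 in U118 resistant, and CSF1R was the only one of them at 1 TPM or more in every library. CSF1R was 1.34 to 1.43 TPM in U118 sensitive, 9.47 to 15.1 in U118 resistant and 5.47 to 6.75 in U87. ITGAM was 0.659 to 1.45 TPM in U118 resistant and at most 0.175 in the other groups. The summed level of 5 endothelial markers was 3.23 to 3.71 TPM in U87 sensitive and 1.87 to 2.42 in U87 resistant. It was 2.36 to 2.51 in U118 sensitive and 0.492 to 0.812 in U118 resistant. The part of these markers in the results was not tested. The mesenchymal markers VIM, CD44, CHI3L1, FN1 and TGFBI were all above 1 TPM in every library.

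The promoters of the CXC ligands on chromosome 4 are shown first, because they share a short stretch of bases of the kind that NF-kappa B is known to bind. In RefSeq sequences of build GRCh38.p14, which reach from 250 bases before to 50 after the start of the gene, 9 of the 10 members had an entry. The longest stretch present upstream of CXCL1, CXCL2, CXCL3, CXCL5 and CXCL6 alike was GGGAATTTCCC (11 letters). The longest that CXCL8 held as well was GGAATTTCC (9 letters), which lies inside the former. For each gene 30 bases are printed 5′ to 3′ on its own strand, with the shared letters in capitals. The distance given is that of the first capital from the RefSeq start of the gene. GENCODE release 29, used for gene positions in the text, places the start elsewhere for all of these genes but CXCL1. The windows of CXCL2, CXCL3, CXCL5 and CXCL6 lie inside the gene as GENCODE draws it.
CXCL1, chr4:73869304-73869333, + strand, 79 bases upstream: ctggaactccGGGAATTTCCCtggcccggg
CXCL2, chr4:74099254-74099283, - strand, 78 bases upstream: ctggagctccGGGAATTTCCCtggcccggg
CXCL3, chr4:74038749-74038778, - strand, 79 bases upstream: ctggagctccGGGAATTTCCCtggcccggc
CXCL5, chr4:73998749-73998778, - strand, 91 bases upstream: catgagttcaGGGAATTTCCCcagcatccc
CXCL6, chr4:73836578-73836607, + strand, 90 bases upstream: cctgagttcaGGGAATTTCCCcagcatccc
CXCL8, chr4:73740467-73740496, + strand, 91 bases upstream: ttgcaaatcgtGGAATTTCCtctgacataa

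Searched on both strands, the 11 letters occurred in 0.0769% and the 9 letters in 0.461% of 35116 promoter windows of the same length. The genes compared were picked after the sequences had been read, and a match is only a description of letters. TGANTCA, the letters bound by AP-1 factors, occurred in 7.71% of windows and among the members in CXCL8 alone, starting 137 bases upstream. The windows of CXCL12, CCL3 and CCL20 held neither the 11 nor the 9 letters, and none was searched for CCL2. Members that carry the stretch differed widely in level, since CXCL6 was listed at 0 in every library. Over the 250 bases upstream, CXCL1 and CXCL2 were 84.2% identical where aligned, CXCL1 and CXCL3 86.4%, and CXCL5 and CXCL6 85.9%.

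The labelled groups of a line were set against each other with limma on log2(TPM + 1), and a gene entered the test where 3 or more of the line's 6 libraries reached 1 TPM. It was called higher or lower if its p, adjusted over all tested genes by Benjamini-Hochberg, was under 0.05 and its log2 change was 1 or more in size. All adjusted p-values below are from limma with this adjustment, and all log2 changes are resistant minus sensitive after adding 1 to the TPM, by which the change of low genes is understated. An exact permutation test of 3 against 3 libraries cannot give a p below 0.1 and was not used.

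CCL2 and CCL3, the monocyte and macrophage attractants, and CXCL8 were called higher in the libraries labelled resistant in both comparisons, and those labelled U118 resistant went against their label. In U87, 6 of the 10 members passed the filter and 3 of them were called, against 10.8% of the 13845 genes tested. All 3 were higher, against 3.03% of genes higher and 7.79% lower. In U118, 7 members passed and 6 were called, against 35.3% of 15527 genes. CXCL1, CXCL2, CXCL8, CCL2 and CCL3 were higher, against 8.64% of genes, and CXCL12 was lower, against 26.6%. Under median-ratio scaling, which brings the median ratio of the libraries' genes to 1, 4 members were called higher in U87, against 5.02% of genes higher and 3.78% lower, and in U118 5 were higher, against 15.3%, and 1 lower, against 12.9%. CXCL1 and CXCL8 in U87, and CXCL1, CCL2 and CCL3 in U118, passed the filter only through the resistant libraries, and CXCL12 in U118 only through the sensitive ones, so these shares of tested members are no support for a direction. Because the members were chosen with earlier results of these data known, the shares are also no independent comparison with all genes. The ranges of the groups did not overlap for all 6 tested members in U87, each with resistant higher, where 13.6% of genes had that pattern and 39.8% the reverse. In U118 they did not overlap for 5 members with resistant higher, against 15.7% of genes, and for 2 with resistant lower, against 42.9%.

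**Figure D1:**
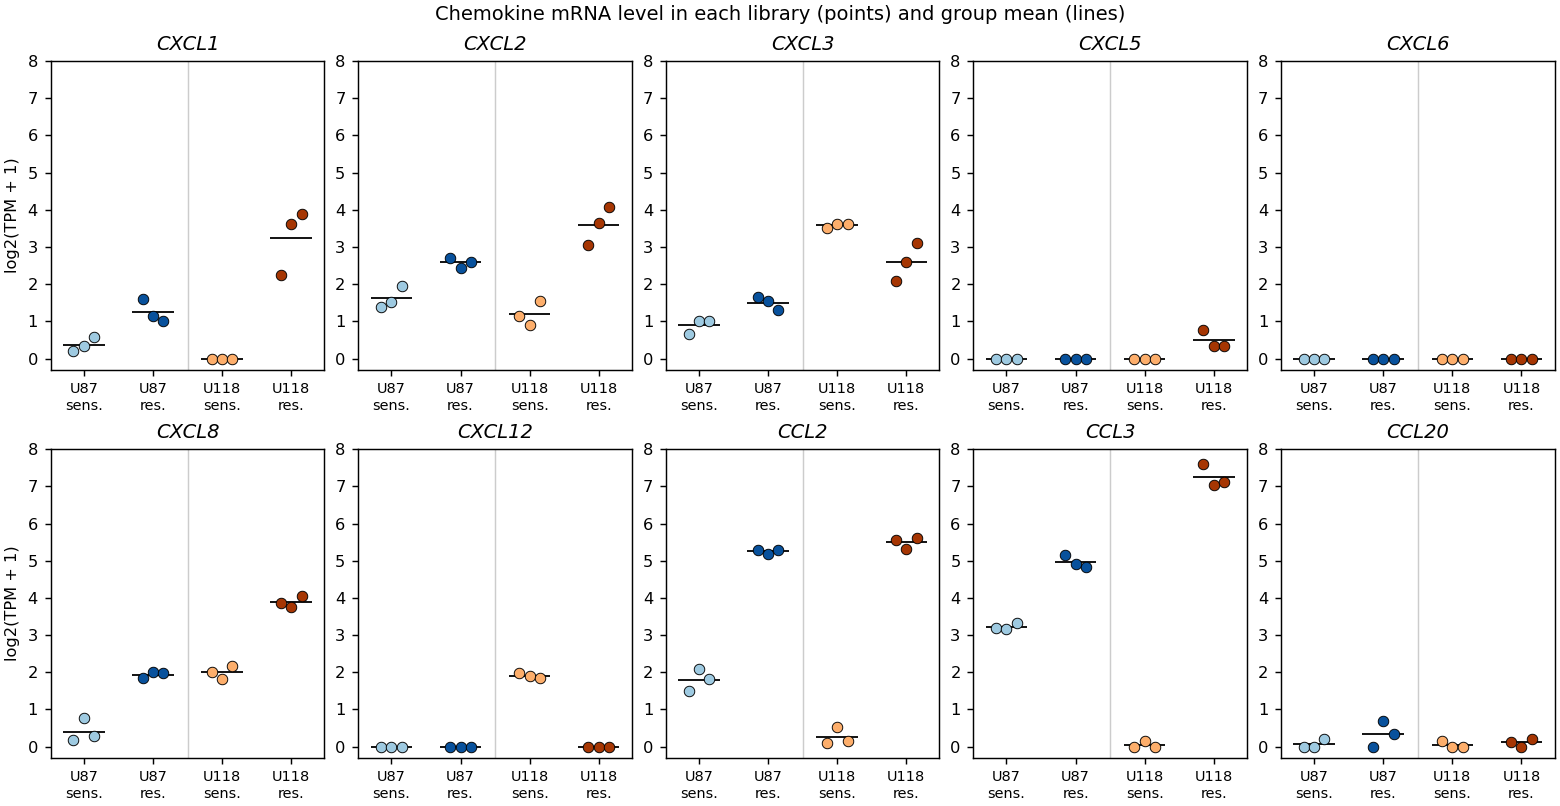
Level of the 10 chemokines as log2(TPM + 1) on the vertical axis in each of the 12 libraries (points, 3 per group) with the group mean (lines); sens. is sensitive and res. is resistant. CCL2 and CCL3 are highest in the resistant groups of both lines, CXCL3 is highest in U118 sensitive, and CXCL12 is above 0 only in U118 sensitive.

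Among the CXCR2 ligands, CXCL8 was the member called higher in both lines. CXCL8 (ENSG00000169429, chr4:73740506-73743716 in GRCh38) was 0.125, 0.695 and 0.211 TPM in U87 sensitive replicates 1 to 3 and 2.59, 3.0 and 2.91 TPM in U87 resistant. It was 3.0, 2.50 and 3.52 TPM in U118 sensitive and 13.5, 12.4 and 15.5 TPM in U118 resistant. In both lines every resistant library was above every sensitive one, and the U87 resistant range overlapped that of U118 sensitive. The log2 change was 1.53 (SE 0.18, adjusted p 0.00102) in U87 and 1.89 (SE 0.23, adjusted p 0.000206) in U118, and with a pseudocount of 0.1 it was 2.94 in U87 and 2.17 in U118. The difference between these changes was 0.35 with a 95% interval of -0.25 to 0.96 (adjusted p 0.341), an interval that includes 0 and reaches close to 1.

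CXCL2, a neutrophil attractant also known as MIP-2α, was 1.61, 1.84 and 2.90 TPM in U87 sensitive and 5.55, 4.45 and 5.07 TPM in U87 resistant. It was 1.19, 0.883 and 1.94 TPM in U118 sensitive and 7.23, 11.5 and 15.9 TPM in U118 resistant. The groups did not overlap in either line, and U118 resistant replicate 1 was the lowest library of its group. The log2 change in U87 was 0.97 (SE 0.19, adjusted p 0.00787), just under the fold limit, and in U118 it was 2.39 (SE 0.31, adjusted p 0.000313), called higher. Under median-ratio scaling the U87 change was 1.18 and was called higher.

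CXCL1, the founding growth-regulated ligand of the group, was 0.150, 0.257 and 0.490 TPM in U87 sensitive and 2.01, 1.22 and 1.00 TPM in U87 resistant. It was listed at 0 in all 3 U118 sensitive libraries and was 3.71, 11.3 and 13.7 TPM in the libraries labelled U118 resistant. The lowest U118 resistant value was replicate 1, the library with the lowest mitochondrial share of that group. In U87 the log2 change was 0.88 (SE 0.19, adjusted p 0.0117) and was not called. In U118 the gene was called higher (adjusted p 0.00017), with no fold given against a group at 0.

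CXCL3 went the opposite way in U118. It was 0.570, 1.02 and 1.03 TPM in U87 sensitive and 2.13, 1.95 and 1.45 TPM in U87 resistant, a log2 change of 0.61 (SE 0.17, adjusted p 0.0286), under the fold limit. In U118 it was 10.4, 11.3 and 11.3 TPM in sensitive and 3.28, 5.02 and 7.58 TPM in resistant libraries. The ranges did not overlap and the sensitive libraries were higher, but the log2 change of -0.99 (SE 0.29, adjusted p 0.0189) was just inside the fold limit and was not called. It was -0.48 (adjusted p 0.278) under median-ratio scaling and -1.24, called lower, without U118 resistant replicate 3. Without U118 sensitive replicate 1, 2 or 3 the adjusted p was 0.0592, 0.0684 and 0.0658, and CXCL3 was not called. The difference between the changes of the lines was -1.59 (95% interval -2.33 to -0.85, adjusted p 0.00269).

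CXCL3 made up 85.3% to 92.8% of the summed TPM of CXCL1, CXCL2 and CXCL3 in U118 sensitive libraries and 18.0% to 23.0% in those labelled U118 resistant. In U87 its share was 23.3% to 32.6% in sensitive and 19.3% to 25.6% in resistant libraries, so that 3 of the 4 groups lay near each other and U118 sensitive stood apart. The summed level of the 3 genes was 2.33 to 4.42 TPM in U87 sensitive and 7.52 to 9.69 TPM in U87 resistant. In U118 it was 11.6 to 13.2 TPM in sensitive and 14.2 to 37.2 TPM in resistant libraries. With the 3 genes summed before the fit, an alternative chosen after seeing the data, the log2 change was 1.13 (adjusted p 0.00642) in U87 and 0.94 (adjusted p 0.0397) in U118. Their transcripts in GENCODE release 29 are alike, with 90.5% identity between CXCL1 and CXCL2, 81.7% between CXCL1 and CXCL3 and 83.3% between CXCL2 and CXCL3 over aligned bases. Of the stretches of 50 bases in CXCL1, 5.73% occurred unchanged in CXCL2 and 0.573% in CXCL3. How shared reads were assigned is not given in the sources used here, so the split among these 3 genes is uncertain.

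CXCL5, an attractant of neutrophils first found in epithelial cells, was listed at 0 in 9 libraries and was 0.717, 0.258 and 0.272 TPM in U118 resistant. CXCL6, its close relative, was listed at 0 in all 12 libraries. Neither was tested. The transcripts of this pair were 81.2% identical over aligned bases and shared no stretch of 50 bases.

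**Figure D2:**
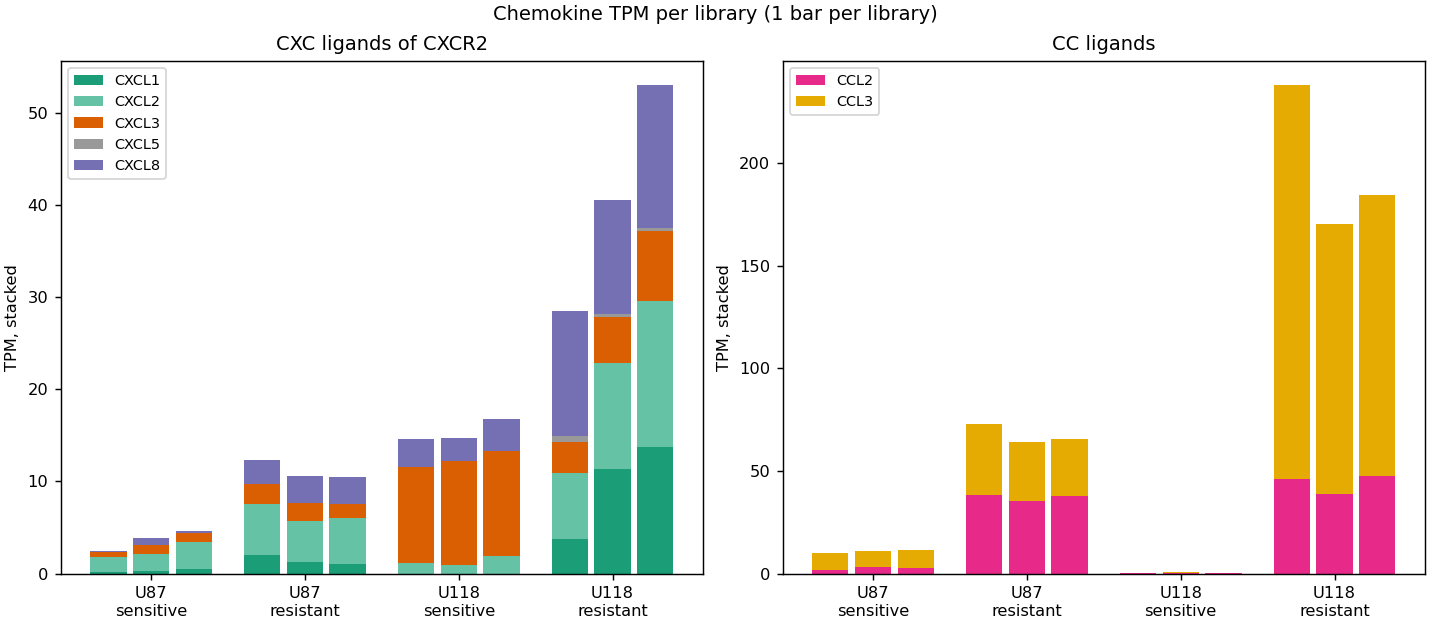
TPM of the CXC ligands of CXCR2 (left) and of CCL2 and CCL3 (right), stacked, with 1 bar for each of the 12 libraries and TPM on the vertical axes, whose scales differ. The CXCR2 ligands sum to 2.45 to 4.63 TPM in U87 sensitive and to 28.4 to 52.9 TPM in U118 resistant, and CXCL3 is the largest segment only in U118 sensitive.

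CXCL12, which retains CXCR4-bearing stem and immune cells, was above 0 in 1 group only. It was 2.95, 2.70 and 2.59 TPM in U118 sensitive and listed at 0 in the 9 other libraries, including all 3 labelled U118 resistant. It was called lower in U118 (adjusted p 1.9e-05), with no fold given against a group at 0, and it could not be tested in U87. These are the libraries in which 86 of 110 genes that set U118 sensitive apart were below 1 TPM, and the part of this in the CXCL12 result was not tested.

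ACKR3, the receptor that binds and removes CXCL12, changed in opposite directions. It was 1.57, 0.944 and 1.15 TPM in U87 sensitive and 12.2, 10.6 and 10.9 TPM in U87 resistant, and was called higher with a log2 change of 2.47 (adjusted p 0.000117). In U118 it was 5.38, 5.24 and 5.17 TPM in sensitive and 0.252, 0.153 and 0.254 TPM in resistant libraries, and was called lower with a log2 change of -2.36 (adjusted p 1.04e-05). The difference between the lines was -4.83 (adjusted p 8.52e-09). CXCR4, the signalling receptor of CXCL12, did not exceed 0.105 TPM in any library.

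CCL2, the main monocyte attractant among the members, had the largest change of any member in U87. CCL2 (ENSG00000108691, chr17:34255218-34257203) was 1.80, 3.23 and 2.52 TPM in U87 sensitive and 38.3, 35.3 and 37.9 TPM in U87 resistant. It was 0.0751, 0.432 and 0.117 TPM in U118 sensitive and 46.1, 39.0 and 47.7 TPM in U118 resistant. The resistant groups reached like levels, 37.2 ± 1.66 TPM in U87 and 44.3 ± 4.63 TPM in U118 (SD, n = 3), although the tables were normalized separately and no test was made between them. The sensitive groups lay apart, with the lowest U87 library above the highest of U118. The log2 change was 3.46 (SE 0.17, adjusted p 6.43e-05) in U87 and 5.23 (SE 0.24, adjusted p 7.19e-07) in U118, and the difference was 1.77 (95% interval 1.16 to 2.39, adjusted p 0.00031). Its size depended on the pseudocount, and with 0.1 in place of 1 it was 3.47.

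CCL3, also known as MIP-1α, is a ligand of CCR1 and attracts macrophages. CCL3 (ENSG00000277632, chr17:36088256-36090169) was 8.06, 7.98 and 9.0 TPM in U87 sensitive and 34.5, 28.9 and 27.6 TPM in U87 resistant. In U118 sensitive it was listed at 0 in replicates 1 and 3 and was 0.111 TPM in replicate 2, against 192, 131 and 137 TPM in U118 resistant. The order of the 4 groups was U118 resistant, U87 resistant, U87 sensitive and U118 sensitive, with no overlap between neighbours, as for CCL2 and CXCL1. The log2 change was 1.74 (SE 0.13, adjusted p 0.000166) in U87 and 7.20 (SE 0.24, adjusted p 2.22e-07) in U118, and the difference of 5.46 (95% interval 4.90 to 6.01, adjusted p 7.94e-09) was the largest among the members. With a pseudocount of 0.1 it was 8.36. In U87 resistant libraries CCL2 was the higher of the pair, and in U118 resistant ones CCL3 was.

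The neighbouring copy of CCL3, ENSG00000276085 (CCL3L3, also listed as CCL3L1), was 96.1% identical to CCL3 over the aligned transcript and shared 9.88% of its 50-base stretches. It was 0.0365 TPM in U87 sensitive replicate 1 and listed at 0 in replicates 2 and 3, and its mean was 0.279 ± 0.0502 TPM in U87 resistant (SD, n = 3). It was listed at 0 in U118 sensitive and reached 0.718, 3.74 and 4.16 TPM in U118 resistant. Adding the copy to CCL3 gave log2 changes of 1.75 in U87 and 7.23 in U118, both called, so CCL3 with its copy kept its call whichever row held the reads.

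CCL20, an attractant of Th17 and dendritic cells, stayed at or below 0.599 TPM in all 12 libraries and was not tested. It was listed at 0 in 6 libraries, its highest value was in U87 resistant replicate 2, and the ranges of all neighbouring groups overlapped.

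**Figure D3:**
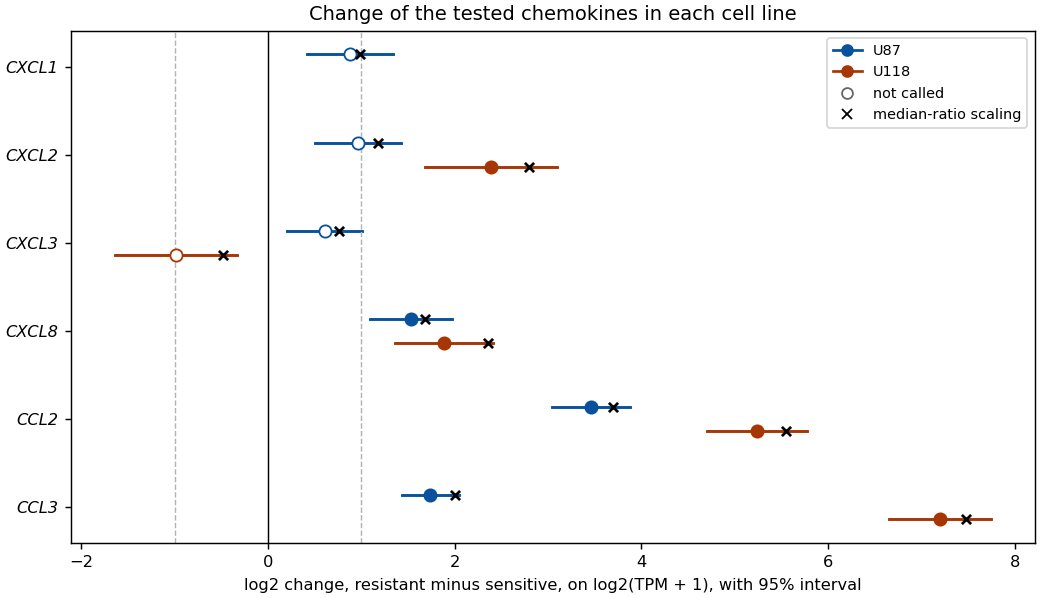
Log2 change (resistant minus sensitive, of TPM + 1) of the members tested, with 95% intervals, in U87 (blue) and U118 (brown). Filled circles are called, open circles are not, crosses give the change under median-ratio scaling, and dashed lines mark the limit of 1; CXCL1 and CXCL12 in U118 are left out because 1 group is at 0. CXCL3 is the only gene with the 2 lines on opposite sides of 0, at 0.61 and -0.99.

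Summed over the 10 members, the level was 12.3 to 16.3 TPM in U87 sensitive and 75.4 to 85.1 TPM in U87 resistant libraries. It was 17.7 to 19.5 TPM in U118 sensitive and 211 to 266 TPM in U118 resistant. The makeup differed, since CCL2 and CCL3 gave 70.7% to 80.1% of the sum in U87 sensitive, 85.1% to 86.0% in U87 resistant and 77.6% to 89.3% in U118 resistant, but 0.424% to 3.02% in U118 sensitive, where CXCR2 ligands made up most of it. In bulk RNA a change in the share of cells that express a gene and a change in RNA per cell cannot be told apart.

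TPM of all other genes fall when a few genes take more of the total, and the mitochondrial share was higher in every U87 resistant library than in any U87 sensitive one. The median log2 change of all genes tested was -0.24 in U87 and -0.52 in U118, so a member at 0 would lie above the median gene. Relative to that median the U87 change was 1.12 for CXCL1, 1.21 for CXCL2 and 0.85 for CXCL3, and the U118 change was -0.47 for CXCL3. The part of the mitochondrial share in the members' changes was measured by recomputing TPM without those genes, and 5 members were then called in U87 in place of 3, and again 6 in U118.

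The change of the members differed between the lines for 6 of the 7 tested, where 30.5% of 16382 genes differed. CXCL12 entered this test only through the U118 sensitive libraries and CXCL1 only through resistant ones, so the count is no support for a direction. The difference is the U118 change minus the U87 change. CXCL1, CXCL2, CCL2 and CCL3 had a difference above 0, CXCL3 and CXCL12 one below 0, and CXCL8 did not pass. All of these differences rest on the libraries labelled U118 resistant.

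Of the 36 other chemokine ligands, 3 were tested in U87, and 2 of them were called higher, against 3.03% of all genes. CCL5 passed the filter only through the resistant libraries. CCL5 (RANTES), a ligand of CCR1 and CCR3, was 0.378, 0.175 and 0.314 TPM in U87 sensitive and 2.24, 2.51 and 1.71 TPM in U87 resistant, a log2 change of 1.29 (adjusted p 0.000911). CCL26 (eotaxin-3), a ligand of CCR3 and the highest gene of this list, was 6.13, 7.75 and 5.45 TPM in sensitive and 16.2, 13.7 and 17.2 TPM in resistant cells, a log2 change of 1.17 (adjusted p 0.002). Neither overlapped between the groups.

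In U118, 3 other ligands were tested, 1 was called higher and 2 lower, against 8.64% and 26.6% of all genes. CCL5 passed the filter only through the resistant libraries and CXCL16 only through the sensitive ones. CCL5 was at or below 0.0723 TPM in sensitive libraries and was 1.13, 6.0 and 5.62 TPM in resistant, a log2 change of 2.15 (adjusted p 0.00242). CCL26 was 39.3, 51.0 and 29.1 TPM in sensitive and 6.59, 3.84 and 4.50 TPM in resistant libraries, a log2 change of -2.76 (adjusted p 7.3e-05), opposite to U87. CXCL16, the ligand of CXCR6, was 2.04, 1.88 and 2.17 TPM in sensitive libraries and was listed at 0 in 2 of the 3 resistant ones, and was called lower with a log2 change of -1.50 (adjusted p 0.000131). The interferon-induced ligands CXCL9, CXCL10 and CXCL11, which attract T cells through CXCR3, did not exceed 0.709 TPM in any library and were not tested.

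Of the 23 chemokine receptors, 5 were tested in each line. ACKR3 was the only one called in U87, and in U118 ACKR3 and CXCR6 were called lower, against 26.6% of all genes, where ACKR3 passed the filter only through the sensitive libraries. CXCR6 was 2.20, 2.15 and 3.15 TPM in U118 sensitive and 1.39, 0.442 and 0.414 TPM in resistant libraries, a log2 change of -1.04 (adjusted p 0.00836), and was not called under median-ratio scaling. Several signalling receptors of the members were near 0, with CXCR1 listed at 0 in all 12 libraries and CXCR2, CCR2 and CCR6 at or below 0.123 TPM. CCR1, a receptor of CCL3 and CCL5 that was singled out after its values were seen, was higher than these. It was 13.5, 20.1 and 17.6 TPM in U87 sensitive and 10.2, 8.89 and 8.77 TPM in U87 resistant (log2 change -0.80, adjusted p 0.00999, not called). In U118 it was 1.85, 2.24 and 2.91 TPM in sensitive and 6.96, 4.49 and 5.34 TPM in resistant libraries (log2 change 0.98, adjusted p 0.00925, not called, but called higher under median-ratio scaling). CCRL2, an atypical receptor that binds chemerin and had the highest mean of the list, was between 5.89 and 19.2 TPM in all libraries and was called in neither line.

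Of 16 regulators of the NF-kappa B and C/EBP families, which are known to control chemokine genes, 15 were tested in U87, 2 were called higher and 1 lower, against 3.03% and 7.79% of all genes. TNFAIP3, an inhibitor of NF-kappa B signalling that is itself induced by it, was 2.02 to 3.03 TPM in U87 sensitive and 6.39 to 7.33 TPM in U87 resistant (log2 change 1.16, adjusted p 0.00193). CEBPD, a C/EBP transcription factor, was 3.39 to 4.19 TPM and 7.59 to 8.84 TPM (log2 change 1.01, adjusted p 0.00224). IKBKG, the scaffold subunit of the kinase that releases NF-kappa B, was 72.0 to 77.1 TPM and 23.5 to 25.4 TPM (log2 change -1.59, adjusted p 6.93e-05). The genes of the NF-kappa B subunits NFKB1, NFKB2, RELA and RELB were not called in U87. Under the fold limit, NFKB1 (log2 change -0.76, adjusted p 0.00759) and NFKB2 (-0.39, adjusted p 0.0263) were lower. RELB was higher (0.59, adjusted p 0.00994), and RELA had an adjusted p of 0.602.

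In U118 all 16 regulators were tested, 5 were called higher and 1 lower, against 8.64% and 26.6% of all genes. NFKB2 and RELB, the subunits of the non-canonical pathway, and NFKBIE, an inhibitor, had log2 changes of 1.82, 3.05 and 2.29, and CEBPD was again called higher at 1.43. IKBKG was called higher at 1.03 and TNFAIP3 lower at -1.07, both opposite to U87, and TNFAIP3 was not called under median-ratio scaling. CEBPB, the highest gene of the list with a mean of 152 TPM, was called in neither line.

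Of 13 cytokine and receptor genes of pathways that induce chemokines, 10 were tested in U87 and 3 were called higher, against 3.03% of all genes. IL1B passed the filter only through the resistant libraries. IL1B, an interleukin-1 ligand, was listed at 0 in all U87 sensitive libraries and was 2.96, 2.58 and 2.84 TPM in U87 resistant (adjusted p 0.000102). IL1R1, its receptor, was 4.50 to 6.67 TPM and 14.9 to 16.3 TPM (log2 change 1.38), and IL1RN, the receptor antagonist, was 2.33 to 3.97 TPM and 87.3 to 165 TPM (log2 change 4.81, adjusted p 7.81e-05). So the ligand, the receptor and the antagonist were called higher together with CXCL8, CCL2 and CCL3 in U87, and a link between them was not tested. IL1RAP of the same list was not called in U87 (log2 change -0.23, adjusted p 0.514).

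In U118, 12 of the 13 were tested, 6 were called higher and 1 lower, against 8.64% and 26.6% of all genes. IL1A and IL1B passed the filter only through the resistant libraries. IL1B was 0.329 to 0.927 TPM in sensitive and 73.0 to 107 TPM in resistant libraries (log2 change 5.81, adjusted p 6.79e-07). IL1RN (3.74), IL6 (1.89), IL1A (1.34), LIF (1.32) and TNFRSF1B (1.11) were also called higher, with their log2 changes in parentheses. IL1R1 was called lower at -1.58, opposite to U87. TNF did not exceed 0.227 TPM in any library, and TNFRSF1A, the highest gene of the list with a mean of 173 TPM, was called in neither line, but higher in U118 under median-ratio scaling.

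**Figure D4:**
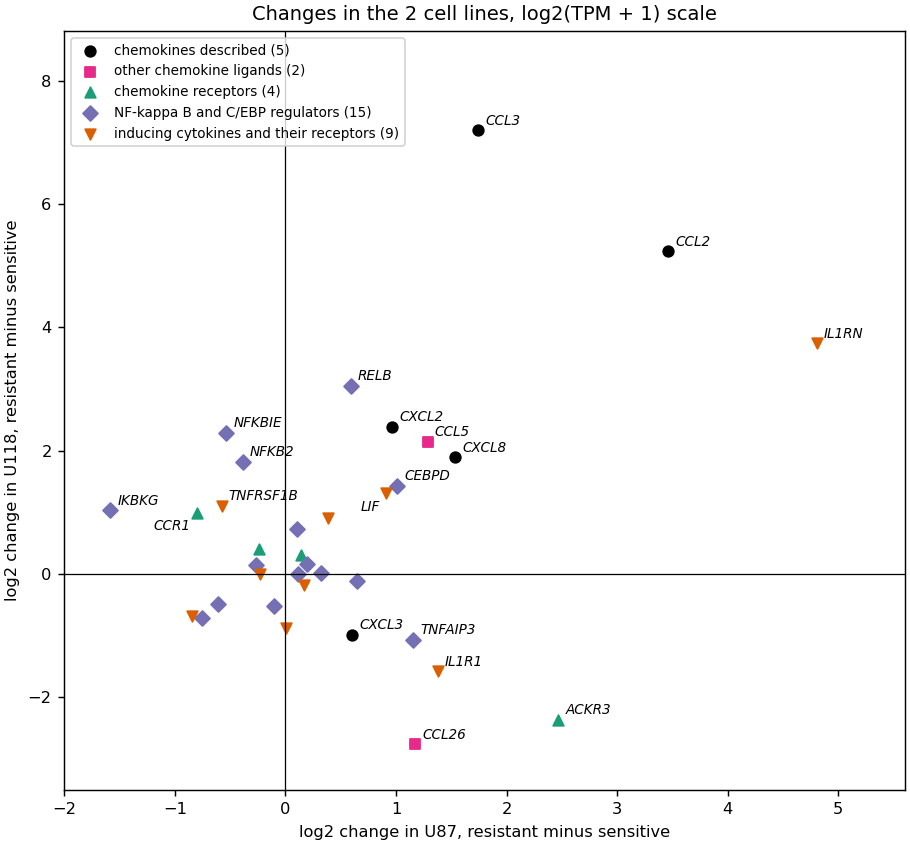
Log2 change (resistant minus sensitive, of TPM + 1) in U87 on the horizontal and in U118 on the vertical axis for genes tested in both lines with no group at 0 (numbers of genes in the key). CXCL2, CXCL8, CCL2, CCL3, CCL5, CEBPD and IL1RN lie above 0 on both axes, and CXCL3, CCL26, ACKR3, IL1R1 and TNFAIP3 lie above 0 in U87 and below 0 in U118.

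Several chemokine mRNAs carry AU-rich elements that decay factors recognise. Of 9 such regulators, all tested in both lines, limma called none in U87, where 1 had an unadjusted p under 0.05 with resistant higher and 5 with resistant lower. Over all genes, 6713 of 13845 had such a p in either direction, so the count is not read as a shift of these regulators. With adjustment 3 passed at log2 changes smaller than the limit, namely HNRNPD at -0.50, ELAVL1 at -0.62 and ZC3H12A at 0.41. In U118, 1 was called higher and 4 lower, against 8.64% and 26.6% of all genes. ZFP36L2, which promotes decay of AU-rich mRNAs, was 68.7 to 86.6 TPM in sensitive and 7.76 to 11.2 TPM in resistant libraries (log2 change -2.94, adjusted p 1.08e-05). TIA1 (-1.85), ZFP36 (-1.54) and HNRNPD (-1.18) were called lower, and ZFP36 and HNRNPD were not called under median-ratio scaling. ZC3H12A (regnase-1), an RNase of cytokine mRNAs, was called higher at 1.75. KHSRP, the highest of the list with a mean of 287 TPM, was called in neither line.

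Of 10 enzymes that cut chemokines, 7 were tested in U87 and 3 were called higher, namely FAP (log2 change 1.83), MMP14 (1.42) and CTSB (1.14), against 3.03% of all genes. In U118, 8 were tested and 4 were called lower, namely MMP1 (-7.86), ANPEP (-6.88), MMP3 (-5.88) and FAP (-1.75), against 26.6% of all genes. ANPEP passed the filter only through the sensitive libraries. MMP1 was 681 to 821 TPM in U118 sensitive and 1.28 to 5.05 TPM in resistant libraries. MMP2, which truncates CXCL12 and CCL7, had the highest mean at 2405 TPM and log2 changes of 0.83 in U87 and 0.30 in U118, neither called, though the former was called under median-ratio scaling. The median log2 change of the tested genes in U87 and U118 was 0.11 and 0.08 for the NF-kappa B and C/EBP regulators, 0.28 and 1.00 for the cytokines and their receptors, -0.35 and -0.85 for the decay regulators and 0.98 and -1.32 for the enzymes. Over all genes it was -0.24 and -0.52.

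In U87 all 4 tested CXC ligands of the chromosome 4 cluster lay higher in every resistant library than in any sensitive one, where 13.6% of genes had that pattern. The log2 changes were 0.88 for CXCL1, 0.97 for CXCL2, 0.61 for CXCL3 and 1.53 for CXCL8, each at an adjusted p under 0.05. The adjusted p of CXCL3 rose above 0.05 under several alternatives, and was 0.0911 with no filter. CXCL1 and CXCL8 passed the filter only through the resistant libraries, so the count is no support for a direction. Among 20 genes in order from ANKRD17 to PARM1, 9 were tested in U87, and CXCL8 was the only one past the fold limit. Of all genes, 3.03% were called higher and 7.79% lower. CXCL2 was also past the limit under median-ratio scaling. In U118, 10 were tested, and CXCL8, CXCL1, CXCL2, EREG and PARM1 were called higher, against 8.64% of all genes. ANKRD17, at the edge of the region, was called lower (log2 change -1.03, not called under median-ratio scaling), against 26.6%. Here CXCL1 and PARM1 passed the filter only through the resistant libraries, so this count is no support for a direction. CXCL3, which lies between CXCL5 and CXCL2, was lower in every U118 resistant library than in any sensitive one, whereas CXCL1 and CXCL2 nearby were higher. These 3 genes are close in sequence, and how reads were split among them is uncertain. The platelet chemokine genes PF4, PF4V1 and PPBP, which lie among the CXC ligands, were listed at 0 in all 12 libraries. EREG, an epidermal growth factor ligand beyond the cluster, was 9.49, 9.86 and 13.8 TPM in U118 sensitive and 60.0, 18.4 and 22.1 TPM in U118 resistant (log2 change 1.34, adjusted p 0.0232).

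**Figure D5:**
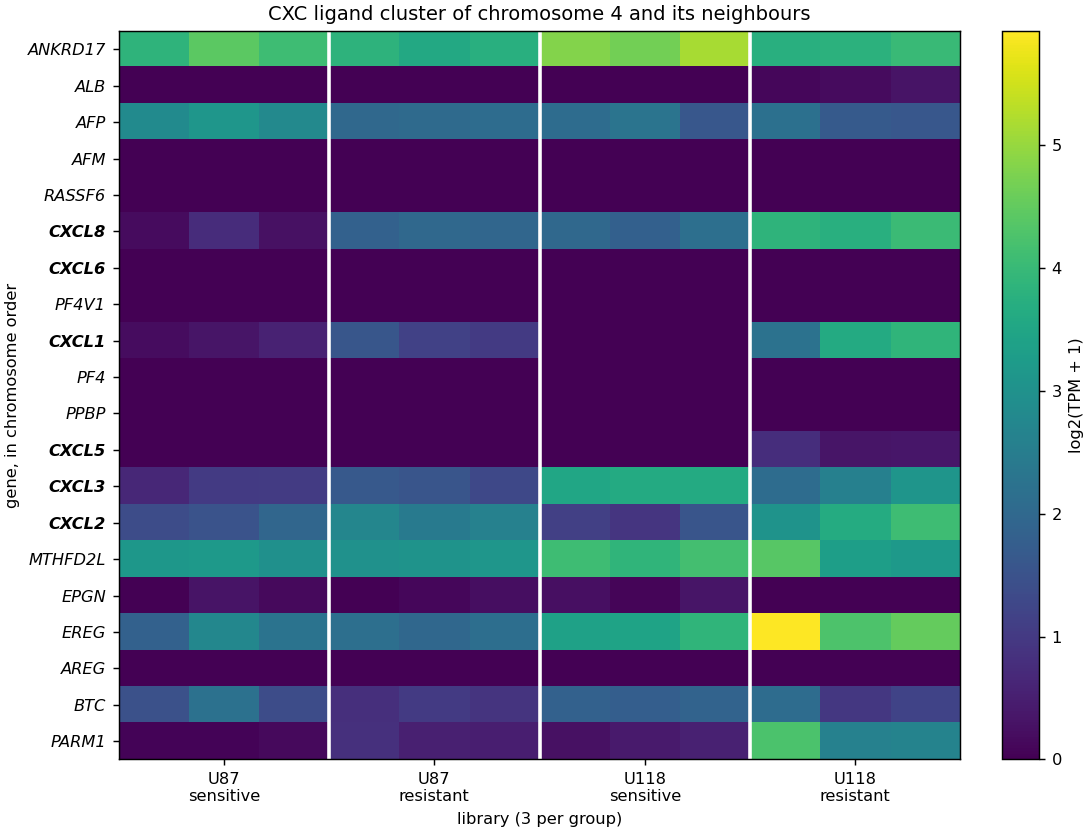
Level as log2(TPM + 1) (colour) of 20 genes in chromosome order (rows, members in bold) in the 12 libraries (columns, 3 per group). CXCL1 is at 0 and CXCL3 is at its brightest in the U118 sensitive columns, while PF4, PF4V1 and PPBP are at 0 throughout.

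On chromosome 17, 19 genes around CCL2 and CCL3 were listed, 3 of them were tested in each line, and all 3 (CCL2, CCL5 and CCL3) were called higher in both, against 3.03% of all genes in U87 and 8.64% in U118. CCL5 in both lines, and CCL2 and CCL3 in U118, passed the filter only through the resistant libraries, so this count is no support for a direction. The others, among them CCL7 beside CCL2 and CCL4 beside CCL3, were below 1 TPM in most libraries and were not tested. CCL7 did not exceed 0.346 TPM and CCL4 did not exceed 0.922 TPM. So these neighbours did not share the high levels of CCL2 and CCL3, but CCL4 shared their direction. CCL4 was listed at 0 in U118 sensitive and was 0.721 to 0.922 TPM in U118 resistant. In U87 resistant it was 0.107 to 0.307 TPM, each library above every sensitive one. CCL15 and CCL18 were also higher in every U87 resistant library than in any sensitive one. The ranges of CCL7 and CCL8 overlapped in both lines.

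Genes with the most similar pattern were ranked by the root mean square difference of centred log2(TPM + 1) over the 12 libraries. The nearest to CCL2 were C3 (0.68), a complement component, FPR1 (0.70), a receptor of formyl peptides, and HAS1 (0.71), a hyaluronan synthase, where CCL2 itself varied by 2.25 around its mean. The nearest to CCL3 were RRAD (0.74), CSF3 (0.75), the granulocyte colony-stimulating factor, and IER3 (0.75), and those nearest to CXCL8 were ADAMTS5 (0.38), LIF (0.38) and AL513283.1 (0.41). CXCL2 lay nearest to BEAN1, APBA2 and CD70, CXCL1 to FAM27E3, IL32 and AC026310.2, and CXCL3 to DUSP10, AL022341.1 and CTTNBP2NL. CXCL12 lay nearest to ZNF850, SMILR and AC020951.1, which had means of 2.56 to 2.73 TPM in U118 sensitive and at most 0.00528 TPM elsewhere. These distances describe 12 libraries of 4 groups, and any gene with the same 4 group means comes close.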

How the data were processed

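The mRNA-seq of 12 libraries (3 of each of 4 groups) was used. The authors deposited TPM values per gene in 1 table for each line. The submitters' processing notes name FastQC 0.11.2, Trimmomatic 0.36, HISAT2 2.0, bedtools 2.26.0 and GRCh38; the quantifier and annotation are not given in the sources used here. Groups were taken from the sample titles, and no library pair was identical.

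Within each line, log2(TPM + 1) was fitted with limma 3.58.1 (eBayes with trend) in R 4.3.3, for genes that reached 1 TPM in 3 or more libraries, and the difference between lines as an interaction over all 12. Calls needed p under 0.05 after Benjamini-Hochberg adjustment and a log2 change of 1 or more. The fit was tested on simulated data. Symbols and positions came from GENCODE release 29, promoters from RefSeq (GRCh38.p14), and alignments from Biopython 1.88. Tables and figures used pandas 2.3.3 and matplotlib 3.10.9 in Python 3.11.15.

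The members and gene lists were chosen with earlier results of these data known. All 10 members were named. Of each other list the text names the gene with the highest mean TPM and up to 6 called genes per line with the largest change, and for members in the 12-library fit the 3 nearest genes. Genes outside this rule were chosen after their values were seen.

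Alternatives were a pseudocount of 0.1, no filter, a filter at a mean of 10 TPM, scaling by median ratios, TPM without the 37 mitochondrially encoded genes, a replicate block, eBayes without trend, no fold threshold and leaving out each library. Summing CCL3 with its copy and summing CXCL1, CXCL2 and CXCL3 were chosen after seeing the data. Each library's precision cannot be given because TPM keeps no depth. Some genes of the lists are not reported here.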

Additional observations from a re-analysis of the deposited data

Results flagged for a closer look

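The change from sensitive to resistant differed between the lines for 31 of the 68 genes tested in the lists other than those of cell type markers, against 30.5% of all 16382 genes, by the limma interaction (U118 log2 change minus U87 log2 change, Benjamini-Hochberg adjusted p under 0.05 and a difference of at least 1). All of these differences use the libraries labelled U118 resistant, which went against their label. CXCL12, CXCL16 and ANPEP among them entered the test only through the U118 sensitive libraries, and XCR1 only through the U87 sensitive ones. CXCL1 and IL1B entered it only through resistant libraries, and PARM1 only through those labelled U118 resistant. The count is therefore no support for a direction. Of the marker lists, 5 of 10 tested genes passed the same test, with a difference of -8.22 for FN1, 3.23 for TGFBI, 1.59 for CHI3L1, -1.28 for CD44 (not called under median-ratio scaling) and 2.48 for CSF1R.

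Among the members, the difference was 5.46 for CCL3 (adjusted p 7.94e-09), 1.77 for CCL2 (adjusted p 0.00031), 1.42 for CXCL2 (adjusted p 0.012) and -1.59 for CXCL3 (adjusted p 0.00269). It was 2.37 for CXCL1 (adjusted p 0.00183) and -1.91 for CXCL12 (adjusted p 3.02e-07), where a group is listed at 0. The sizes depend on the pseudocount, and with 0.1 in place of 1 they were 8.36 for CCL3, 3.47 for CCL2, 4.45 for CXCL1 and -4.83 for CXCL12.

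Among other ligands and receptors, the difference was -3.93 for CCL26, -1.46 for CXCL16, -4.83 for ACKR3, 1.78 for CCR1 and 1.23 for XCR1, the receptor of XCL1, which was at or below 1.89 TPM throughout. Among the NF-kappa B regulators it was 2.21 for NFKB2, 2.46 for RELB, 2.83 for NFKBIE, -2.23 for TNFAIP3 and 2.62 for IKBKG. Among the inducing cytokines it was 3.89 for IL1B, with U87 sensitive at 0, -2.96 for IL1R1, 1.68 for TNFRSF1B and 1.20 for IL6. Among the decay regulators it was -2.59 for ZFP36L2 and 1.34 for ZC3H12A. Among the enzymes it was -1.61 for DPP4, -3.59 for FAP, -7.45 for MMP1, -6.00 for MMP3, -2.32 for MMP14, -1.44 for CTSB and -6.98 for ANPEP. On chromosome 4 it was 1.52 for EREG and 2.22 for PARM1.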

How the results depend on the processing

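CXCL1 and CXCL2 in U87 lay near the fold limit and CXCL3 further below it, and each was called under at least 1 alternative. The adjusted p of CXCL3 in U87 was 0.0911 with no filter, 0.0778 with the replicate block and up to 0.0873 on leaving out 1 library. The members called in U87 were 3, and 6 with a pseudocount of 0.1, 5 without mitochondrially encoded genes and 6 with no fold threshold. In U118 they were 6, and 2 with a mean of at least 10 TPM, where only 2 members were tested; the members differing between lines were 6, and 2 with that filter. In U118, CXCL3 alone had a log2 change of -0.99, and the sum of CXCL1, CXCL2 and CXCL3, an alternative chosen after seeing the data that adds 2 genes called higher, had 0.94 (adjusted p 0.0397). The difference of CXCL8 between lines moved from 0.35 to -0.77 (adjusted p 0.307) with a pseudocount of 0.1, and the cause was not tested. Leaving out 1 library gave 3 to 4 members called in U87, where CXCL2 joined without sensitive replicate 3 (1.14) or resistant replicate 2 (1.04), 6 to 7 in U118 and 6 to 6 differing between lines. With the replicate number as a block, the counts were 3, 6 and 6. Same-numbered samples correlated at -0.07 to 0.01 in U87 and 0.05 to 0.14 in U118. Differently numbered ones correlated at -0.06 to 0.08 in U87 and -0.11 to 0.04 in U118, so in U118 every same-numbered value was the higher. The numbers were not taken as pairs in the main fits, and these values do not settle whether they are.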
